A study of Mus musculus with 8 samples.

Results

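The sarcomere, Z-disc and stretch response genes described here are 37 genes chosen by name for their place in the contractile apparatus of heart muscle. They hold 4 of the thick filament and titin, 5 of the thin filament, 2 of the M-band and 12 of the Z-disc. A further 5 are of the desmin network and its chaperones, 4 are actin anchoring and Xin proteins, and 5 are grouped under stretch response. The last is a group name, and no response to stretch was measured. No measured value of the arrays entered the choice rule, but the list was made with earlier results of these data known. All 37 were measured, of 19933 genes in all. They were read in left ventricular RNA of 8 mice with an Affymetrix mouse gene array for each heart. The study profiled hearts of mice with a transgene for placental growth factor, alone or with RGS4. The mice were of strain C57/Bl6 and 11 weeks old, and their transgenes were held off by doxycycline in the diet until 5 weeks of age and then left on for 6 weeks. The groups held 3 controls, 2 PlGF mice and 3 mice under the label PlGF/RGS4. The PlGF mice carried the placental growth factor gene under a tetracycline-responsive promoter together with the tetracycline transactivator (tTA) driven by the cardiomyocyte αMHC promoter, and the PlGF/RGS4 line adds RGS4, a regulator of G-protein signaling. The controls were littermates with 1 of the transgenes, and the labels do not say which. Arrays are given as biological replicates, and the sex of the mice is not stated.

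In the heart the sarcomere is the repeating unit of contraction: myosin thick filaments slide past actin thin filaments, titin spans from the Z-disc to the M-band as a molecular spring, and desmin filaments tie neighbouring Z-discs together. The Z-disc and the intercalated disc also sense load. Muscle LIM and ankyrin repeat proteins located there move to the nucleus or change in level when the wall is stretched, and mutations in many of these genes cause cardiomyopathy.

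Values are deposited intensities in linear units, a log2 difference is taken on log2 of the intensity plus 1, and every adjusted p is limma's with Benjamini-Hochberg adjustment over all 19933 genes, called at 0.05. Pgf, which encodes placental growth factor, read 4136 and 917 in PlGF, 211 to 387 in control and 211 to 300 in the arrays labelled PlGF/RGS4, and Rgs4 read 187 to 234 in those arrays and 210 to 282 in control. Neither transgene was thus read above control in the PlGF/RGS4 arrays, and that group is named by its label only. Below, the transgenic groups or arrays are those labelled PlGF or PlGF/RGS4, although the controls also carried a transgene. Naming them together does not mean that they share a transgene effect. Xist, which is expressed from the inactive X chromosome of females, was low (27 to 51) on 1 array of each group and 2581 to 2958 on the other 5. Each group thus held both kinds, and control replicate 2, PlGF replicate 1 and PlGF/RGS4 replicate 2 were the low ones. Contrasts with control share the same 3 control arrays.

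In PlGF hearts the members lay on both sides of control. Lrrc10, a cardiac leucine-rich repeat protein of the sarcomere, fell 2.14-fold and was the only 1 of the 37 to pass the adjusted threshold; no member rose past it. The genes of lower value included the myosin light chain kinase gene Mylk3, the M-band gene Myom2, Nexn, Tpm1 and Fhl2, and those of higher value included the Xin gene Xirp2, Flnc, the ankyrin repeat gene Ankrd23, Nrap and Enah. The median log2 difference of PlGF from control was -0.008 over the members and -0.03 over all genes, while the median size of the difference, whatever its sign, was 0.20 over the members and 0.10 over all genes. The members' differences ran from -1.10 to 0.72.

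Of the 37 members, 1 (2.7%) passed the adjusted threshold, as lower in PlGF than in control. Over all genes 0.748% passed as lower and 2.53% passed in either direction, which is near the members' share. At an unadjusted p under 0.05, 8 members (21.6%) were lower, against 11.7% of all genes, and 6 (16.2%) were higher, against 10.9%. Such genes were more frequent at higher levels. In either direction they were 4508 of all 19933 genes and 14 of the 37 members in the main fit. In a separate fit of only the genes above the median level they were 3034 of 9966. The shares and median sizes over all genes, here and below, are not matched for the level of the members. In 11 members (29.7%) both PlGF arrays lay below all 3 controls, against 19.5% of all genes, and in 9 (24.3%) both lay above, against 14.3%. The remaining 17 overlapped the controls, and among them the sign of the difference turned with another scaling of the arrays in Tnnt2, Tnnc1, Tmod1, Actn2, Ldb3, Pdlim5 and Smpx.

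**Figure D1:**
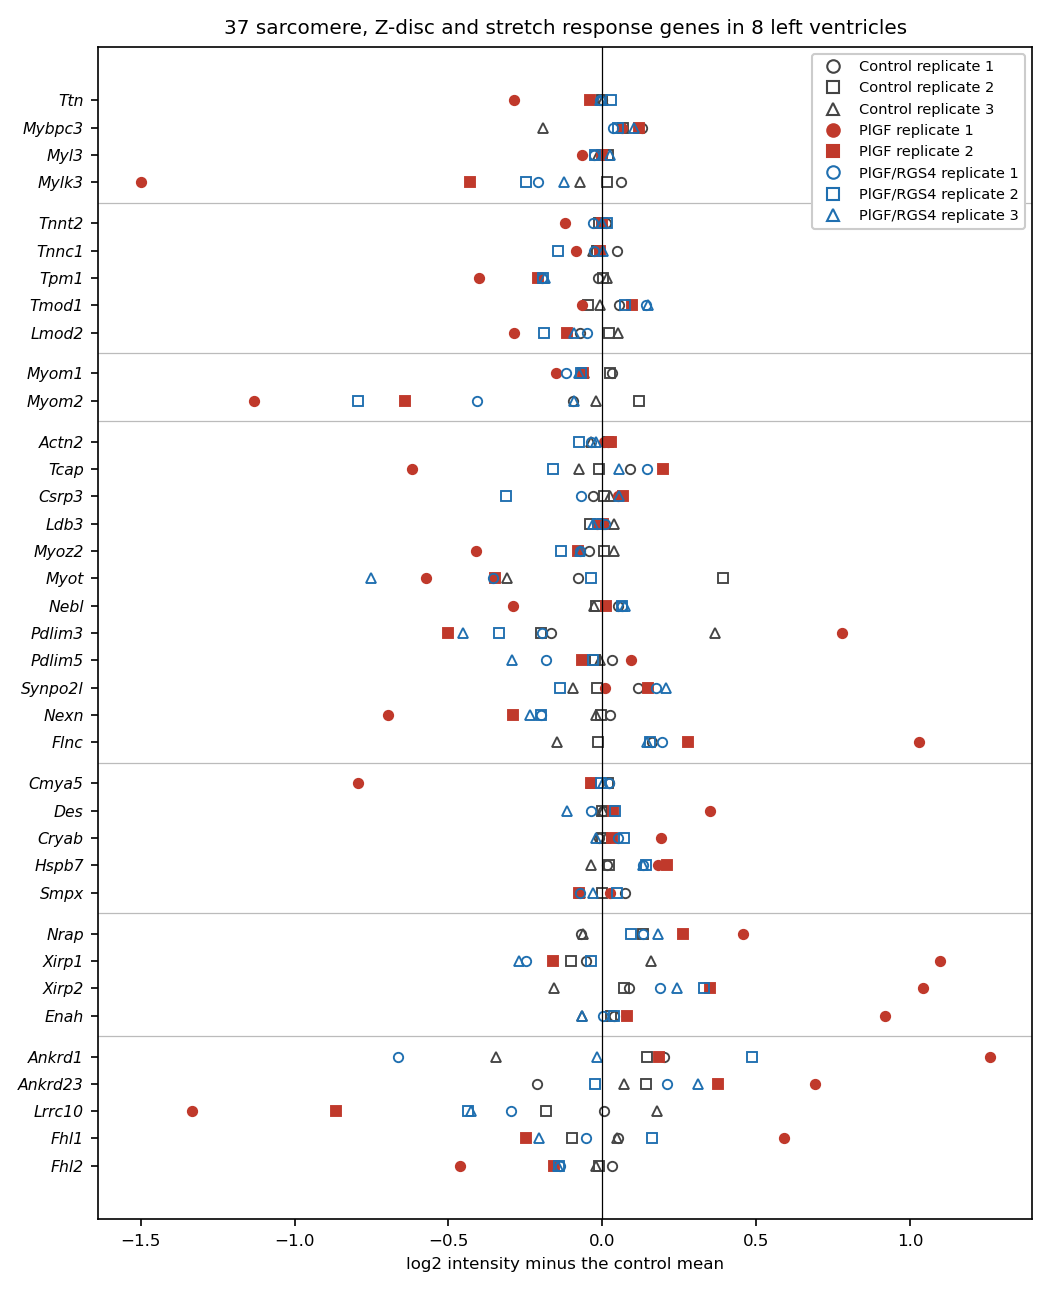
Log2 intensity minus the control mean (horizontal axis) of the 37 members (rows, grouped by role from thick filament at the top to stretch response at the bottom) on each of the 8 arrays. Filled red points are PlGF hearts, open grey points controls and open blue points PlGF/RGS4 hearts, and the marker shape is the replicate. PlGF replicate 1 runs from -1.50 in Mylk3 to 1.26 in Ankrd1, while most other points lie near 0.

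Among the stretch response genes Lrrc10 stood at one end and the ankyrin repeat genes at the other. Lrrc10 read 3312, 2908 and 3726 on the control arrays, 1309 and 1812 on the PlGF arrays, and 2687, 2434 and 2454 on the PlGF/RGS4 arrays. Every PlGF array was below every other array, and the PlGF/RGS4 arrays lay between the PlGF and the control arrays without overlapping either. The log2 difference of PlGF from control was -1.10 (SE 0.15, 95% interval -1.45 to -0.75, limma adjusted p = 0.0214). The difference of PlGF/RGS4 from control was -0.39 (SE 0.13, limma adjusted p = 0.945, unadjusted p = 0.0226). Between PlGF and PlGF/RGS4 it was -0.71 (SE 0.15), with a limma adjusted p of 0.0810, the smallest of any member in that comparison. The two-sided exact permutation p was 0.1 in each of the 3 comparisons, which is the smallest that 2 against 3 or 3 against 3 arrays can give. The adjusted p of Lrrc10 in PlGF versus control missed 0.05 when any 1 control or any 1 PlGF/RGS4 array was left out (0.0533 to 0.0929). With a PlGF array left out the limma adjusted p was 0.0418 or 0.000987, but the lone PlGF array is then assumed to vary like the other groups, so the spread between PlGF hearts is not in that value.

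Ankrd1 and Ankrd23 encode muscle ankyrin repeat proteins that bind titin in its elastic region and are known for induction by stretch. Ankrd1 read 5573, 5364 and 3820 on the control arrays, 11600 and 5516 on the PlGF arrays, and 3062, 6795 and 4793 on the PlGF/RGS4 arrays. PlGF replicate 1 was 2.39-fold above the control mean, while PlGF replicate 2 lay inside the control range, so the log2 difference of 0.72 (SE 0.40, limma adjusted p = 0.324) did not pass. The PlGF/RGS4 arrays spread on both sides of the controls. Ankrd23 read 3589, 4593 and 4365 on the control arrays, 6706 and 5391 on the PlGF arrays, and 4810, 4089 and 5154 on the PlGF/RGS4 arrays. Both PlGF arrays were above all other arrays for Ankrd23, with a log2 difference from control of 0.53 (SE 0.15, limma adjusted p = 0.0984) and from PlGF/RGS4 of 0.37 (SE 0.15, adjusted p = 0.237).

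The LIM-only pair Fhl1 and Fhl2, adaptors at titin and the Z-disc, did not share a pattern. Fhl2 read 8601, 8365 and 8307 on the control arrays, 6117 and 7560 on the PlGF arrays, and 7663, 7646 and 7631 on the PlGF/RGS4 arrays. All 5 arrays of transgenic mice lay below all 3 controls for Fhl2, and the 3 PlGF/RGS4 values differed among themselves by only 32 units. The log2 difference was -0.31 in PlGF (SE 0.08, limma adjusted p = 0.0954) and -0.14 in PlGF/RGS4 (SE 0.08, adjusted p = 0.995). Fhl1 read 2160, 1948 and 2156 on the control arrays, 3136 and 1755 on the PlGF arrays, and 2012, 2332 and 1806 on the PlGF/RGS4 arrays. For Fhl1 PlGF replicate 1 was above and PlGF replicate 2 below every control, and the log2 difference of 0.17 (SE 0.22) had a limma adjusted p of 0.687.

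The thick filament genes differed widely within a small group. Mylk3 encodes the cardiac myosin light chain kinase, which phosphorylates the regulatory light chain. Mylk3 read 2832, 2745 and 2584 on the control arrays, 961 and 2018 on the PlGF arrays, and 2350, 2288 and 2494 on the PlGF/RGS4 arrays. The PlGF arrays were below all others, by 2.83-fold from the control mean in replicate 1 and by 1.35-fold in replicate 2, and all 3 PlGF/RGS4 arrays were below the controls. The log2 difference of PlGF from control was -0.96 (SE 0.26, limma adjusted p = 0.0930), and from PlGF/RGS4 it was -0.77 (SE 0.26, adjusted p = 0.184). Titin (Ttn), the giant spring protein, read 6874 and 8158 in PlGF, against 8388 to 8401 in control and 8346 to 8559 in PlGF/RGS4, so both PlGF arrays were below every other one, with a log2 difference from control of -0.16 (limma adjusted p = 0.234). Myosin binding protein C (Mybpc3) and the essential light chain gene Myl3 overlapped the controls, with log2 differences of 0.09 and -0.03.

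Of the 5 thin filament genes, the troponin genes Tnnt2 and Tnnc1 overlapped the controls in both transgenic groups, with log2 differences of -0.06 and -0.05 in PlGF, and the tropomyosin gene Tpm1 was apart from control in both. Tpm1 encodes α-tropomyosin, the main tropomyosin of the adult heart, which gates myosin access to actin. Tpm1 read 12153, 12302 and 12424 on the control arrays, 9305 and 10641 on the PlGF arrays, and 10728, 10746 and 10800 on the PlGF/RGS4 arrays. The controls covered a span of 271 units, and all 5 transgenic arrays lay at least 1354 units below the lowest of them. The log2 difference was -0.30 in PlGF (SE 0.06, limma adjusted p = 0.0552) and -0.19 in PlGF/RGS4 (SE 0.06, adjusted p = 0.909, unadjusted p = 0.0102), the smallest p of any member in the latter comparison. Between both transgenic groups the Tpm1 difference was -0.11 (95% interval -0.26 to 0.03, limma adjusted p = 0.350). Tropomodulin 1 (Tmod1) and leiomodin 2 (Lmod2) act in opposite ways at the thin filament's pointed end, capping it and lengthening it. Lmod2 read 3924, 4186 and 4272 on the control arrays, 3381 and 3808 on the PlGF arrays, and 3981, 3616 and 3869 on the PlGF/RGS4 arrays. Both PlGF arrays were below the controls for Lmod2 while 1 PlGF/RGS4 array lay within their range, with a log2 difference of -0.20 in PlGF (limma adjusted p = 0.169). Tmod1 had a log2 difference of 0.01 in PlGF, with 1 array below and 1 above all controls, and of 0.12 in PlGF/RGS4, where 3 of 3 arrays were above the controls (limma adjusted p = 0.995).

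The M-band genes Myom1 and Myom2 encode myomesins, which cross-link the thick filaments at mid-sarcomere. Myom2 read 5084, 5908 and 5354 on the control arrays, 2485 and 3489 on the PlGF arrays, and 4105, 3138 and 5100 on the PlGF/RGS4 arrays. The PlGF arrays were below all controls, and the PlGF/RGS4 arrays ranged from below the higher PlGF value to within the control range. The log2 difference was -0.88 in PlGF (SE 0.21, limma adjusted p = 0.0731) and -0.43 in PlGF/RGS4 (SE 0.19, unadjusted p = 0.0570, adjusted p = 0.995). Myom1 read 5035, 5014 and 4727 on the control arrays, 4438 and 4717 on the PlGF arrays, and 4539, 4695 and 4667 on the PlGF/RGS4 arrays. Every transgenic array was below every control for Myom1, but by little, with log2 differences of -0.11 and -0.09.

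**Figure D2:**
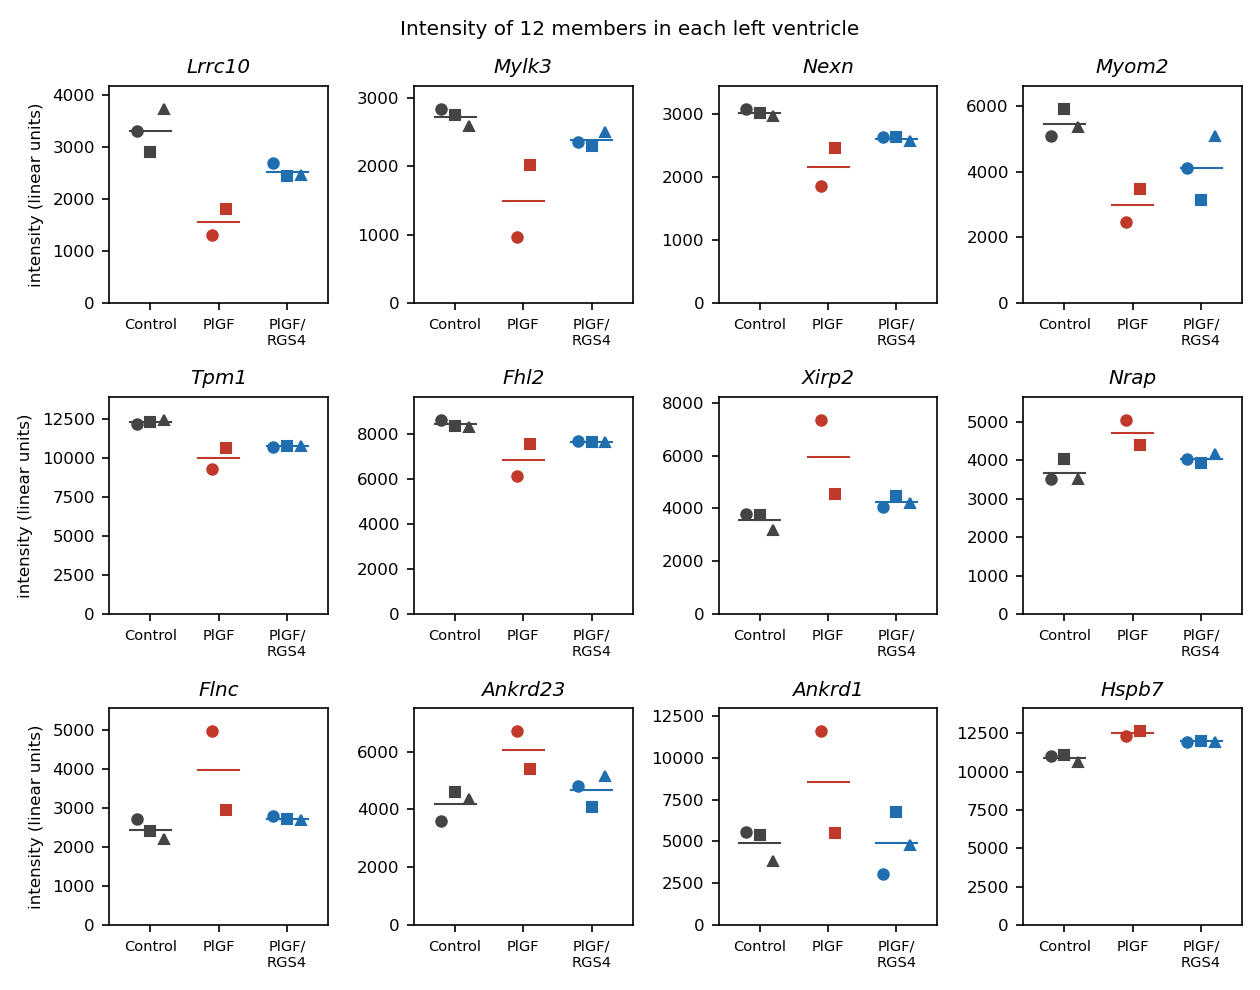
Intensity in linear units (vertical axes, from 0) of 12 members in each left ventricle, by group. Points are arrays, with circle, square and triangle for replicates 1, 2 and 3, and horizontal lines are group means. Lrrc10, Mylk3, Nexn, Tpm1 and Fhl2 are below all controls on all 5 transgenic arrays, Hspb7 and Xirp2 are above on all 5, and Ankrd1 is highest on PlGF replicate 1.

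At the Z-disc the main scaffold genes read close to control. α-Actinin (Actn2), which cross-links the actin filaments of adjoining sarcomeres, cypher (Ldb3) and the actin-binding synaptopodin 2-like gene (Synpo2l) overlapped the controls in PlGF, with log2 differences of 0.02, -0.01 and 0.08. Muscle LIM protein (Csrp3), which was proposed as part of the cardiac stretch sensor, was 0.06 above control and its titin-capping partner telethonin (Tcap) -0.21, with Tcap at 2560 in PlGF replicate 1 and 4501 in replicate 2 against 3726 to 4181 in control. Pdlim5 and Pdlim3, both PDZ-LIM adaptors of α-actinin, had differences of 0.01 and 0.14. Pdlim3 read 946 and 389 in PlGF against 480 to 711 in control. Nebulette (Nebl), a small relative of nebulin, was -0.14 from control in PlGF and -0.21 from PlGF/RGS4 (limma adjusted p = 0.25), and myotilin (Myot) was -0.46 from control with controls spread from 1414 to 2301.

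Of the Z-disc genes, Nexn and Myoz2 below control and Flnc above it had an unadjusted p under 0.05 in PlGF. Nexn encodes nexilin, an actin-binding protein later placed at the junctions of the T-tubule membrane. Nexn read 3081, 3017 and 2980 on the control arrays, 1867 and 2471 on the PlGF arrays, and 2632, 2633 and 2571 on the PlGF/RGS4 arrays. The groups did not overlap, with PlGF lowest and PlGF/RGS4 between, and the log2 difference was -0.49 in PlGF (SE 0.11, limma adjusted p = 0.0594), -0.21 in PlGF/RGS4 (SE 0.09, unadjusted p = 0.0579) and -0.28 between both (unadjusted p = 0.0306). Myoz2 encodes calsarcin-1, which tethers calcineurin to the Z-disc. Myoz2 read 9580, 9912 and 10135 on the control arrays, 7433 and 9350 on the PlGF arrays, and 9388, 8994 and 9395 on the PlGF/RGS4 arrays. All 5 transgenic arrays were below the controls for Myoz2, with PlGF replicate 1 well below the others (log2 difference of PlGF -0.24, limma adjusted p = 0.179). Flnc encodes filamin C, an actin cross-linker of the Z-disc that is recruited to damaged sarcomeres. Flnc read 2731, 2418 and 2200 on the control arrays, 4974 and 2961 on the PlGF arrays, and 2789, 2714 and 2698 on the PlGF/RGS4 arrays. PlGF replicate 1 was 2.04-fold above the control mean and replicate 2 was 1.21-fold above, both higher than any other array, with a log2 difference from control of 0.65 (SE 0.20, limma adjusted p = 0.116).

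In the desmin network the intermediate filament gene Des itself was 0.19 above control in PlGF (limma adjusted p = 0.271), at 11268 and 9047 against 8824 to 8845. The small heat shock proteins that chaperone it and the actin filaments were also above all controls on both PlGF arrays: Cryab, which encodes αB-crystallin, by 0.11 and Hspb7, the cardiovascular small heat shock protein, by 0.20. Hspb7 read 11043, 11080 and 10652 on the control arrays, 12365 and 12646 on the PlGF arrays, and 11958, 12042 and 11958 on the PlGF/RGS4 arrays. All 5 transgenic arrays were above the controls for Hspb7, in narrow groups, with an unadjusted limma p of 0.00324 in PlGF (adjusted p = 0.0705) and 0.0124 in PlGF/RGS4 (log2 difference 0.13, adjusted p = 0.917). For Hspb7 PlGF/RGS4 replicates 1 and 3 had exactly the same value. Such repeats are described with the processing, and their effect on the spread was not tested. Cmya5, encoding myospryn, a desmin-binding scaffold, read 2066 in PlGF replicate 1 and 3486 in replicate 2 against 3485 to 3631 in control (log2 difference -0.42, unadjusted p = 0.0570, limma adjusted p = 0.235). The small muscle protein gene Smpx overlapped the controls (-0.03).

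All 4 genes of actin anchoring and Xin proteins had a higher mean in PlGF than in control and a median log2 difference of 0.48, against 0.06 in PlGF/RGS4, and none of them passed the adjusted threshold. The median was 0.98 in PlGF replicate 1 and 0.17 in PlGF replicate 2. Xirp1 and Xirp2 encode the Xin repeat proteins, which bundle actin at the intercalated disc and gather at sites of myofibril injury and repair. Xirp2 read 3782, 3741 and 3195 on the control arrays, 7337 and 4535 on the PlGF arrays, and 4058, 4475 and 4210 on the PlGF/RGS4 arrays. Both PlGF arrays were above all others for Xirp2, replicate 2 only just, and all 3 PlGF/RGS4 arrays were above the controls. The log2 difference was 0.70 in PlGF (SE 0.18, limma adjusted p = 0.0890), 0.25 in PlGF/RGS4 (SE 0.17, unadjusted p = 0.168) and 0.44 between both (unadjusted p = 0.0459). Xirp1 read 1933, 1868 and 2236 on the control arrays, 4285 and 1793 on the PlGF arrays, and 1691, 1956 and 1664 on the PlGF/RGS4 arrays. For Xirp1 PlGF replicate 1 was 2.14-fold above the control mean and replicate 2 below every control, so that the difference of 0.47 (SE 0.31, limma adjusted p = 0.409) rests on 1 array.

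Nrap links the terminal actin filaments to the membrane and is used in myofibril assembly. Nrap read 3504, 4029 and 3519 on the control arrays, 5048 and 4407 on the PlGF arrays, and 4029, 3921 and 4168 on the PlGF/RGS4 arrays. Both PlGF arrays exceeded all others for Nrap, with a log2 difference of 0.36 from control (SE 0.09, limma adjusted p = 0.0721) and of 0.22 from PlGF/RGS4 (unadjusted p = 0.0330, adjusted p = 0.222). Enah encodes Mena, which promotes actin filament growth and sits at the intercalated disc in cardiomyocytes. Enah read 1606, 1594 and 1492 on the control arrays, 2956 and 1651 on the PlGF arrays, and 1566, 1606 and 1493 on the PlGF/RGS4 arrays. The gap for Enah was wide in PlGF replicate 1 and small in replicate 2, with a log2 difference of 0.50 (SE 0.21, limma adjusted p = 0.210).

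The differences were larger in 1 of the PlGF hearts than in the other. In PlGF replicate 1, 15 members were more than 0.5 from the control mean on the log2 scale, and in PlGF replicate 2 there were 3 (Lrrc10, Myom2 and Pdlim3). The median size of the difference was 0.40 in replicate 1 and 0.12 in replicate 2, against 0.16 and 0.07 over all genes. Replicate 1 was the farther of both from the control mean in 30 members (81.1%, against 70.9% of all genes), and both arrays lay on the same side of it in 28 (75.7%, against 70.3%). Pdlim3, Xirp1, Fhl1 and Tcap, by contrast, lay outside the controls on opposite sides in both hearts, as did Tmod1 and Pdlim5 by smaller steps. PlGF replicate 1 is also the heart with the higher Pgf reading and with low Xist, and with 2 PlGF arrays these cannot be told apart. With PlGF replicate 2 left out 23 members passed the adjusted threshold against control, where 29.7% of all genes did, and with replicate 1 left out 2 did, where 1.84% of all genes did. In both cases PlGF is a single array that is assumed to vary like the other groups, and the counts are given as a description of that array.

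**Figure D3:**
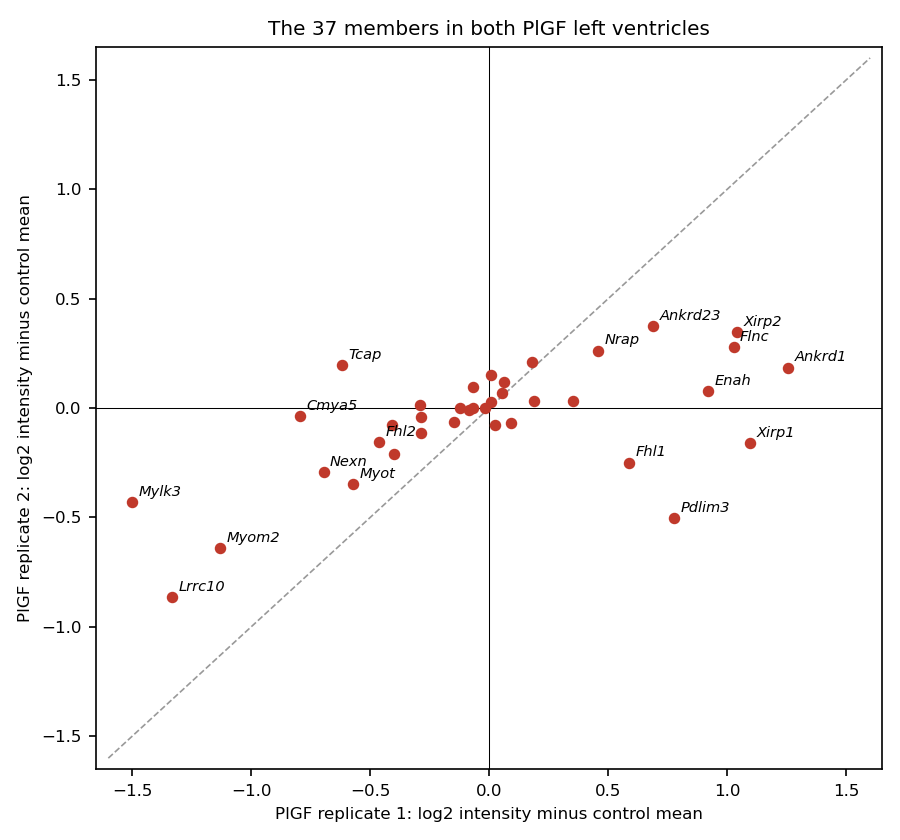
Each point is 1 of the 37 members, placed by its log2 intensity minus the control mean in PlGF replicate 1 (horizontal axis) and in PlGF replicate 2 (vertical axis), with equal values on the dashed line. In 30 of 37 members replicate 1 lies farther from 0, and Tcap, Xirp1, Fhl1 and Pdlim3 lie on opposite sides of 0 in both hearts.

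In the PlGF/RGS4 arrays no member passed the adjusted threshold against control (smallest limma adjusted p = 0.909, for Tpm1), where 0.0151% of all genes did. At an unadjusted p under 0.05 there was 1 higher member (Hspb7), against 2.74% of all genes, and 2 lower ones (Tpm1 and Lrrc10), against 2.28%. The arrays of both groups nevertheless did not overlap in 12 members. All 3 PlGF/RGS4 arrays were below all controls in 8 (Mylk3, Tpm1, Myom1, Myoz2, Pdlim5, Nexn, Lrrc10 and Fhl2), which is 21.6% of the members against 5.85% of all genes, and above in 4 (Tmod1, Nebl, Hspb7 and Xirp2), which is 10.8% against 6.96%. The median difference was -0.03 over the members and 0.003 over all genes, and the median size was 0.09 against 0.05. The differences were small, from -0.43 in Myom2 to 0.25 in Xirp2.

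The direct test of both transgenic groups gave no member past the adjusted threshold (1.19% of all genes passed it). At an unadjusted p under 0.05, 6 members were higher in PlGF (Flnc, Des, Nrap, Xirp2, Enah and Ankrd23; 16.2%, against 8.95% of all genes) and 4 were lower (Mylk3, Nebl, Nexn and Lrrc10; 10.8%, against 10.6%). Arrays did not overlap in 7 higher members (18.9%, against 12.6%) and 8 lower ones (21.6%, against 19.9%). The split depended on the scaling, since with arrays centred on the median an unadjusted p under 0.05 was reached by 2 higher and 7 lower members. The widest estimates were 0.79 in Ankrd1 (95% interval -0.15 to 1.73) and -0.77 in Mylk3 (-1.38 to -0.16), the former spanning 0.

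Other genes of the same structures gave a wider view. Among 44 measured genes of the sarcomere and Z-disc outside the 37, 3 fell in PlGF against control and 0 rose at the adjusted threshold, while an unadjusted p under 0.05 was reached by 10 higher and 9 lower genes, with a median log2 difference of 0.07. Those that fell were Ablim1, an actin-binding LIM protein, by 0.77 (limma adjusted p = 0.0425), Fhod3, the formin that builds cardiac thin filaments, by 0.64 (adjusted p = 0.0459), and Tmod4, a tropomodulin, by 0.59 (adjusted p = 0.0438). Tpm2, which encodes β-tropomyosin, read 260, 396 and 222 on the control arrays, 1446 and 713 on the PlGF arrays, and 547, 743 and 404 on the PlGF/RGS4 arrays, above every control on all 5 transgenic arrays, the opposite order to Tpm1. Its log2 difference in PlGF/RGS4 was 0.95 (limma adjusted p = 0.945). Tpm3, a further tropomyosin gene, was 0.61 higher in PlGF than in PlGF/RGS4 (unadjusted p = 0.00279, adjusted p = 0.0944).

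The neighbouring lists held few calls. Of 25 genes of the costamere, the dystrophin complex and integrin attachment, 0 passed in PlGF against control, and 3 higher and 4 lower genes had an unadjusted p under 0.05, among them talin 1 (Tln1, 0.55) and ankyrin-B (Ank2, -0.34). Of 15 genes of muscle protein folding and quality control 1 passed, Klhl31, which fell by 0.34 (limma adjusted p = 0.0454), while Hsp90aa1 was at 0.59 (adjusted p = 0.0794) and the ubiquitin ligase gene Fbxo32 (atrogin-1) at -0.59 (adjusted p = 0.0923). Of 21 regulators of calcineurin, SRF and MEF2 signalling and cardiac transcription 0 passed (1 higher and 2 lower had an unadjusted p under 0.05), and the lowest were Hand2 at -0.81 (adjusted p = 0.0581) and the SRF coactivator gene Myocd at -0.50 (adjusted p = 0.149). None of 7 wall stress and fetal genes, a list that also holds the member Ankrd1, passed, with 0 at an unadjusted p under 0.05. Nppb, which encodes B-type natriuretic peptide, read 7711 in PlGF replicate 1 and 2227 in replicate 2 against 1516 to 2569 in control, the same split between the PlGF hearts as in Ankrd1. The list as a whole did not rise, with a median log2 difference of -0.003 in PlGF against control. Nppa read 4682 in PlGF replicate 1 and 1424 in replicate 2 against 3185 to 4096 in control. Myh7 had a log2 difference of -0.26 (limma adjusted p = 0.287).

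Among markers of other cells, those of leukocytes were higher as a group in PlGF. Of 12 leukocyte markers 7 rose in PlGF against control, with a median log2 difference of 1.91 in replicate 1 and 0.76 in replicate 2, and their summed intensity was 7257 to 13400 in PlGF, 3969 to 4167 in control and 3541 to 4686 in PlGF/RGS4. Of 8 endothelial markers 1 rose (Cdh5, VE-cadherin), while 3 were higher and 1 was lower at an unadjusted p under 0.05 (the lower one, Vwf, is named after its value was seen), with sums of 14043 to 14476 against 12068 to 12322 in control and 11964 to 12417 in PlGF/RGS4. Of 8 pericyte and smooth muscle markers 1 rose (Pdgfrb), 2 higher ones and 0 lower ones had an unadjusted p under 0.05, with sums of 8998 to 11337, 9354 to 10075 and 7475 to 8511 in PlGF, control and PlGF/RGS4, and of 8 fibroblast and matrix markers 0 passed, with 3 higher at an unadjusted p under 0.05, a median of 0.96 in replicate 1 and 0.08 in replicate 2 and sums of 11448 to 15169, 11063 to 11774 and 11060 to 12041. Of 15 cardiomyocyte markers outside the sarcomere 1 fell (Corin, the protease that activates natriuretic peptides, by 1.02) and 9 were lower at an unadjusted p under 0.05, with summed intensities of 80919 to 103166 in PlGF, 108717 to 112037 in control and 104378 to 107245 in PlGF/RGS4. Cardiomyocyte markers thus had the lowest sum in PlGF replicate 1, where their median log2 difference was -0.44 against -0.02 for the 37 members and -0.09 in replicate 2. In these whole-tissue samples fewer cardiomyocytes and less RNA per cardiomyocyte cannot be told apart, and the part of either in the members' lower values was not tested. Of 9 skeletal muscle markers and 5 atrial markers 0 passed. An unadjusted p under 0.05 was reached by 3 and 1 lower ones and by 0 higher ones. The 3 lower skeletal markers were Ckm, Tnni2 and Myh1. Ckm, at 9215 to 9530 in control, is also counted among the cardiomyocyte markers. Tnni2 read 132 to 193 and Myh1 40 to 55 over the 8 arrays. The atrial light chain gene Myl7 read 55 to 84 over the 8 arrays.

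**Figure D4:**
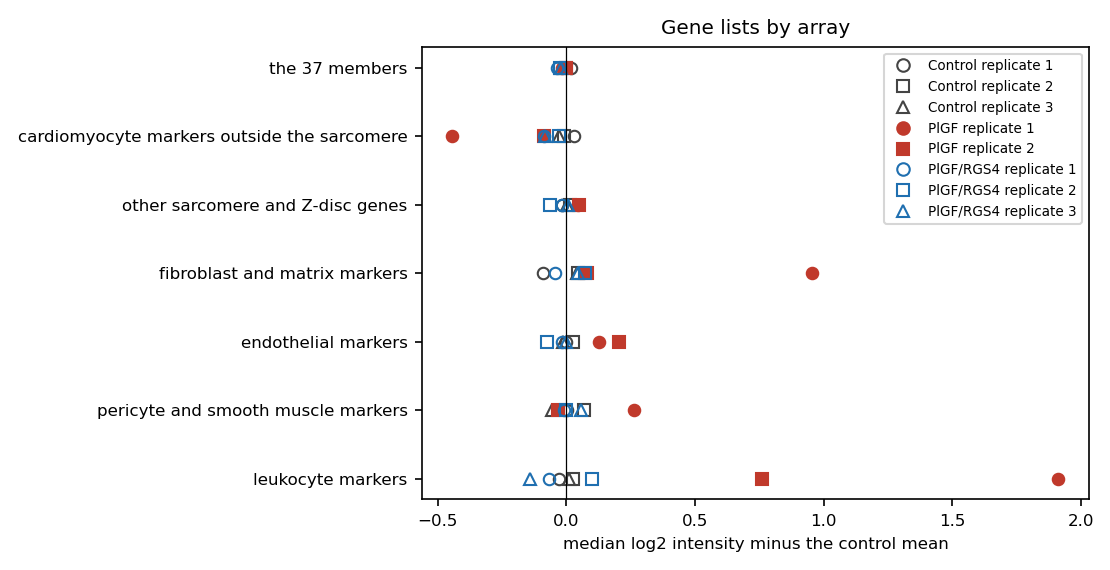
Median log2 intensity minus the control mean (horizontal axis) of the 37 members and of 6 other gene lists (rows) on each of the 8 arrays. Filled red points are PlGF hearts, open grey points controls and open blue points PlGF/RGS4 hearts. The members' medians stay near 0 on every array, while leukocyte markers reach 1.91 and cardiomyocyte markers outside the sarcomere -0.44 in PlGF replicate 1.

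The start regions of the members were searched for 5 motifs, which the choice of genes did not use, and none of the motifs was in most of them. RefSeq promoters, 250 bases before to 50 after each annotated start on GRCm38.p6, were held for 31 members, as 44 starts, some of which overlap. The CArG box, the site of serum response factor, was found on either strand in 8 of the 44 (18.2%), against 1.63% of 32851 promoters of all genes. The MEF2 box was in 7 (15.9%, against 3.19%), the M-CAT core CATTCC, the site of TEAD factors, in 15 (34.1%, against 14.7%), the GATA site AGATAA in 11 (25.0%, against 11.2%) and TATAAA in 4 (9.09%, against 13.6%). The M-CAT core was found in 13 of the 31 genes, the GATA site in 10, and the CArG and MEF2 boxes in 6 each. The shares were not tested. These are matches of letters and not measured binding, and a promoter with several motifs counts under each. The promoters of Lrrc10, the called member, of Tpm1, lower on all transgenic arrays, of Xirp2, higher on all of them, and of Ankrd1, which split the PlGF hearts, are printed with the motifs in capitals. They were picked after the values were seen.
Lrrc10, chr10:117045091-117045390, plus strand: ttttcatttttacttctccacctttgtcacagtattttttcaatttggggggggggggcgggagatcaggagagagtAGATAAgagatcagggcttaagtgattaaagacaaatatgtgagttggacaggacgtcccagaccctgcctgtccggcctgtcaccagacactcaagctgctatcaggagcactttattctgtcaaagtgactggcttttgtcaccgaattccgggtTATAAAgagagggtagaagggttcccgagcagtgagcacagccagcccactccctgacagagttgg
Tpm1, chr9:67049164-67049463, minus strand: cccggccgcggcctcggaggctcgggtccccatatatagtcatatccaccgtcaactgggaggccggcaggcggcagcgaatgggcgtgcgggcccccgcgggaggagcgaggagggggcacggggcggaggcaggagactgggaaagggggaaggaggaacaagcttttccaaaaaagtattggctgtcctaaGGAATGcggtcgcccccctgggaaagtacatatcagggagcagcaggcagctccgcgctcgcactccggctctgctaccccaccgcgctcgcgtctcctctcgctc
Xirp2, chr2:67445752-67446051, plus strand: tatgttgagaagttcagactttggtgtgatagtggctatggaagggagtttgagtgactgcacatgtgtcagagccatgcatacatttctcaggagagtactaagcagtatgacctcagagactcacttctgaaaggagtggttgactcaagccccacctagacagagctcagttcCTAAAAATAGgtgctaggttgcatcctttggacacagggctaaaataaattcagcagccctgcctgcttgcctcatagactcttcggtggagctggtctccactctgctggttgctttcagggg
Ankrd1, chr19:36119795-36120094, minus strand: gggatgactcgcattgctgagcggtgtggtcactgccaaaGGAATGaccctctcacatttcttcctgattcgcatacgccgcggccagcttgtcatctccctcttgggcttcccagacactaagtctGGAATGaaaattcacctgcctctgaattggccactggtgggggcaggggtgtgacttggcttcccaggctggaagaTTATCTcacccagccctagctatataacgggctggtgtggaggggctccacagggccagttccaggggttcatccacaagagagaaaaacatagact
In Lrrc10 the capitals mark AGATAA beginning 173 bases before the start and TATAAA beginning 16 bases before it. In Tpm1 they mark 1 M-CAT core on the reverse strand, 56 bases before the start, in Xirp2 a MEF2 box 74 bases before it, which reads on both strands, and in Ankrd1 a pair of reverse M-CAT cores, 210 and 123 bases before it, and a reverse GATA site 47 bases before it. The members that carried a MEF2 box included Ttn and Myoz2, of lower value in PlGF, and Xirp2, of higher value.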

How the data were processed

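Per the labels, left ventricular total RNA of each heart was hybridised to 1 Affymetrix mouse gene array. The authors made the deposited intensity values, linear and 1 per probe set, with MAS5 and global scaling. The arrays had medians of 111.1 to 115.2 and 99th percentiles of 4776 to 5168, and among 90 genes above 8000 units 29 (32.2%) had 1 value repeated exactly on several arrays, as did 7 of the 37 members; the step behind this is not given in the sources used here. Of 28440 probe sets, 23398 had a gene name and 21780 a single symbol; 1618 with several symbols and 5042 with none here were left out, and the brightest probe set of a gene was kept (19933 genes). Tmod1 and Nebl had 2 probe sets each. All 8 columns were used (0 left out).

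Log2 of the intensity plus 1 was fitted in R 4.3.3 with limma 3.58.1 (lmFit, eBayes), 3 group means on all 8 arrays, with Benjamini-Hochberg adjustment and a threshold of 0.05; the log2 scale with this pseudocount understates dim genes. The script was tested on simulated data. An exact permutation test, two-sided, was added for each member. Replicates are separate hearts per the labels, and the number of arrays limits the precision. All 37 members are named; those with an unadjusted p under 0.05 in PlGF versus control or under 0.01 in another comparison, or in a named pair, have every array's value, and from each other list up to 3 genes per comparison with the smallest p were open to naming, beside Myl7. The members and lists were chosen with earlier results of these data known. Alternatives were other normalizations, a pseudocount of 16, a filter, other handling of probe sets, fewer groups, sex (from Xist, split at 500) as a covariate, the replicate block, the methods' t-test, a robust prior and leaving out each array.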

Additional observations from a re-analysis of the deposited data

How the results depend on the processing

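In PlGF versus control, 1 member (Lrrc10) passed the adjusted threshold. The count was 2 under quantile normalization (with Tpm1) and among genes above the median level (with Tpm1), 3 with arrays centred on the median (with Tpm1 and Nexn), 0 with only the 2 groups compared, 0 under the methods' t-test, 0 with only the 5 arrays of high Xist (a setting chosen after seeing the data), and 0 to 23 with 1 array left out: 23 without PlGF replicate 2, 2 without PlGF replicate 1 and 0 without any control or any PlGF/RGS4 array. Over all 19933 genes the count of 505 became 5921 without PlGF replicate 2, 366 without PlGF replicate 1, 17 to 61 without a control or PlGF/RGS4 array, 0 with the 2 groups, 4 by the t-test, 27 with the replicate block and 41 with high Xist. A lone PlGF array is assumed to vary like the other groups. At an unadjusted p under 0.05 those 3 zero counts stood beside 5 higher and 6 lower, 2 and 4, and 4 and 7 members. Centring moved the unadjusted split from 6 higher and 8 lower to 5 and 11, quantile normalization to 8 and 6; between PlGF and PlGF/RGS4 it went from 6 and 4 to 2 and 7 and to 8 and 3. Between PlGF and PlGF/RGS4 the adjusted count of 0 became 1 (Lrrc10) with sex as a covariate and 0 to 18 with 1 array left out, 18 without PlGF replicate 2, where the count over all genes went from 237 to 5591. With the replicate block 0 members passed in PlGF versus control (5 higher and 7 lower members had an unadjusted p under 0.05). The labels give the groups the same numbers without saying that they pair animals. Same-numbered control and PlGF arrays deviated from their group means with correlations of -0.15 and -0.14. For control and PlGF/RGS4 arrays they were 0.08, 0.30 and 0.10, and for PlGF and PlGF/RGS4 arrays -0.13 and -0.22. With 2 PlGF arrays the deviations mirror each other, and the 0.30 joins arrays that both had low Xist. These correlations therefore cannot show whether the numbers pair animals, and the numbers were not taken as pairs. The adjusted p of Lrrc10 in PlGF versus control was 0.191 with 2 groups, 0.104 with the block, 0.524 by the t-test and 0.124 with high Xist.

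The members' median log2 difference in PlGF versus control was 0.042 under quantile normalization, -0.06 centred, -0.026 with the mean of the probe sets and -0.026 to 0.011 with 1 array left out, so its sign is not settled; in PlGF/RGS4 versus control it was -0.042 to -0.010 with 1 array left out, and between PlGF and PlGF/RGS4 it was 0.035 under quantile normalization, -0.048 centred, 0.009 with sex, 0.012 with high Xist and -0.029 to 0.014 with 1 array left out. Of the 37 members 23 had 1 direction in PlGF versus control in all 20 alternatives, among them the 14 with an unadjusted p under 0.05. Several alternatives could not move this difference, such as another test, fewer groups or a PlGF/RGS4 array left out. The 14 were also picked by p in the same data, so the count is a description only. The direction turned under quantile normalization in Tnnt2 (0.005), Tnnc1 (0.016), Ldb3 (0.042) and Smpx (0.033); under centring in Tmod1 (-0.038), Actn2 (-0.035) and Pdlim5 (-0.04); with the mean of the probe sets in Tmod1 (-0.078); with sex as a covariate (-0.006) and with the replicate block (-0.022) in Pdlim5; and with only arrays of high Xist, which hold PlGF replicate 2 alone, in Myl3 (0.006), Tcap (0.189), Nebl (0.002), Pdlim3 (-0.602), Pdlim5 (-0.08), Xirp1 (-0.213) and Fhl1 (-0.298). With 1 array left out the difference turned in Mybpc3 (-0.006 to 0.154), Tmod1 (-0.066 to 0.095), Actn2 (-0.001 to 0.028), Tcap (-0.619 to 0.195), Ldb3 (-0.027 to 0.011), Nebl (-0.292 to 0.013), Pdlim3 (-0.502 to 0.777), Pdlim5 (-0.068 to 0.092), Smpx (-0.077 to 0.025), Xirp1 (-0.162 to 1.095) and Fhl1 (-0.249 to 0.589). The cause of these turns was not tested. With groups of 2 and 3 hearts, the number of arrays limits the precision.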
